A study of Rattus norvegicus with 4 samples.

Results

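The secreted and membrane-bound guidance cues of the semaphorin, Slit, netrin and ephrin families and their receptors were examined in OLN93 cells, an immortalized rat line of the oligodendroglial lineage, in the presence and absence of the transcription factor Sox10. Genes were taken by symbol: all semaphorins, plexins, Slits, Robos, netrins, ephrins, Eph receptors and genes starting with Unc5, together with Nrp1, Nrp2 and Dcc. The rule found 62 of the 17327 gene symbols with deposited counts and 71 genes when the symbols of the authors' table of comparisons were added. It used no measured value, but it was chosen with earlier results of these data known. Each group had 2 libraries. The controls were Sox10-positive OLN93 cells, which the sample labels call biological replicates and the study's methods call clones, so that each control may also stand for 1 clone. The Sox10-deficient cells were clones A and B, which carried a Sox10 gene inactivated by CRISPR/Cas9 with different guide RNAs, so that each stood for 1 isolated clone. Both groups were the same line in the same serum-containing medium, and stranded mRNA libraries were made from total RNA.

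Guidance cues bind receptors on the surface of migrating cells and growing axons and steer them by remodelling the actin cytoskeleton. Class 3 semaphorins are secreted and act through neuropilins, which bind the ligand, and plexins, which pass the signal into the cell. Slits act on Robo receptors, netrins on Dcc and Unc5 receptors, and ephrins on Eph receptor tyrosine kinases. Oligodendrocyte precursor cells (OPCs) migrate over long distances in the embryonic nervous system and respond to semaphorins and netrin on their way.

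Nrp1, the neuropilin that binds semaphorin 3A, had no counts in either Sox10-deficient clone. The mean control level of Nrp1 was 4.02-fold above the floor of the clones, and the lower control was 3.25-fold above it. Nrp1 was the one guidance gene that passed the adjusted test. This call did not hold with DESeq2 or with a term for the replicate number. Robo1, a Slit receptor, and Sema3a, a secreted ligand of the Nrp1 receptor, differed by more than 2-fold in opposite directions with unadjusted p-values of 0.05 or less, Robo1 downward and Sema3a upward, but neither held after adjustment. The second neuropilin, Nrp2, and the plexin Plxnb2 did not pass either test. Sema3c, another secreted semaphorin, was lower in both clones by less than 2-fold, with an unadjusted p of 0.00771 and an adjusted p of 0.118 from edgeR. Plxna3, Efnb1 and Epha1 were tested and passed neither criterion, and the other 53 genes had too few counts to be tested.

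The libraries held between 60951 and 104017 counts, the sum of the deposited values of each file. This is not the sequenced depth, since the authors' mean normalized counts sum to 19320879, and how the deposited counts came to be lower is not given in the sources used here. A count of 3 was taken as the floor and corresponded to between 29.1 and 48.0 normalized CPM, the count scaled to the TMM-corrected total of the library. Of the 62 guidance genes, 39 had at least 1 count, 23 had 10 or more counts over the 4 libraries together, and 9 passed the filter for testing. Sox10 itself was counted 28 and 64 times in control 1 and control 2, 0 times in clone A and 14 times in clone B. Transcript counts do not show whether clone B still made the protein. Oligodendroglial markers had counts for 13 of 15 genes, while Mag and Ugt8 were at 0 and Mbp had at most 2 counts in a library. Of 9 tested ones, 3 were lower after adjustment, as were 2.5% of all tested genes. The 3 were Cnp, S100b and Sox10, which is itself the edited gene. Cspg4 and Pdgfra, markers of OPCs, had log2 fold changes of 0.93 and 0.22 with adjusted p-values of 0.196 and 0.86 from edgeR, and Cspg4 was higher in both clones than in either control. The summed marker level was 3932 and 3189 CPM in the controls and 2137 and 2061 CPM in clones A and B. Sox10 itself made up 447.6 and 620.4 CPM of it in the controls and 0 and 158.5 CPM in clones A and B. The summed level of the Schwann cell and neural crest markers was lower in the clones, as was Nrp1, at 1503 and 1464 CPM against 581 and 385 CPM. Of that list 6 of 8 genes had counts, Gfra3 was at 0, and 2 of 4 tested genes were lower after adjustment (Ngfr and Erbb3), whereas Sox2 had a log2 fold change of 0.42 and an adjusted p of 0.737 from edgeR. Their part in the results on guidance genes was not tested. Among the markers of other cells, 4 of 8 astrocyte genes, 3 of 8 neuronal, 3 of 7 microglial, 1 of 6 endothelial and 3 of 7 fibroblast genes had counts. Their sums lay between 69.7 and 155 CPM, 45.3 and 184 CPM, 79.3 and 204 CPM, 0 and 63.9 CPM, and 193 and 427 CPM. Aqp4, Aldh1l1, Rbfox3, Syt1, Cx3cr1, Itgam, Ptprc, Pecam1, Cdh5, Dcn and Lum were at 0 in all libraries. Only 1 neuronal gene (Map2) and 1 fibroblast gene (Col1a1) of these 5 lists had enough counts for edgeR, and 0 met the adjusted or the unadjusted criterion.

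Control 1 gave 7 Nrp1 counts, control 2 gave 17, and each clone gave 0. In normalized CPM this was 112 and 165 in the controls, a mean of 138 ± 37.4 (SD, n = 2), against 0 in both clones. The groups did not overlap, and both clones lay under the floor. The limit of 4.02-fold was taken against the floor of the clones, and it was 3.25-fold from the lower control alone. By edgeR's quasi-likelihood test, in which the fitted fold change of a gene at 0 depends on the prior count, the adjusted p was 0.0272. A lower adjusted call of this kind was given to 2.5% of all 2438 tested genes and to 1 of the 9 tested guidance genes. Nrp1 passed the filter through the controls alone, the group where it is high, so that 1 of 9 describes the set and does not test it. The adjusted p of Nrp1 ranged from 0.00156 to 0.212 over the alternatives. With edgeR it was 0.212 without control 1, 0.146 without clone A and 0.167 without clone B, and with DESeq2 it was 0.0526. Without control 2, Nrp1 had too few counts to be tested. In total RNA from a culture, a smaller share of cells with a transcript and less of it per cell cannot be told apart.

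Nrp2, which binds semaphorins 3C and 3F, was counted in all 4 libraries. Control 1 gave 43 Nrp2 counts, control 2 gave 45, clone A 80 and clone B 53. The Nrp2 level was 687 and 436 CPM in the controls and 929 and 600 CPM in clones A and B, and the groups overlapped. edgeR gave a log2 fold change of 0.47 ± 0.32 (SE) with an adjusted p of 0.564, and the sign was the same under each alternative. The summed neuropilin level was 799 and 601 CPM in the controls and 929 and 600 CPM in the clones, with all of the neuropilin counts of the clones coming from Nrp2.

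**Figure D1:**
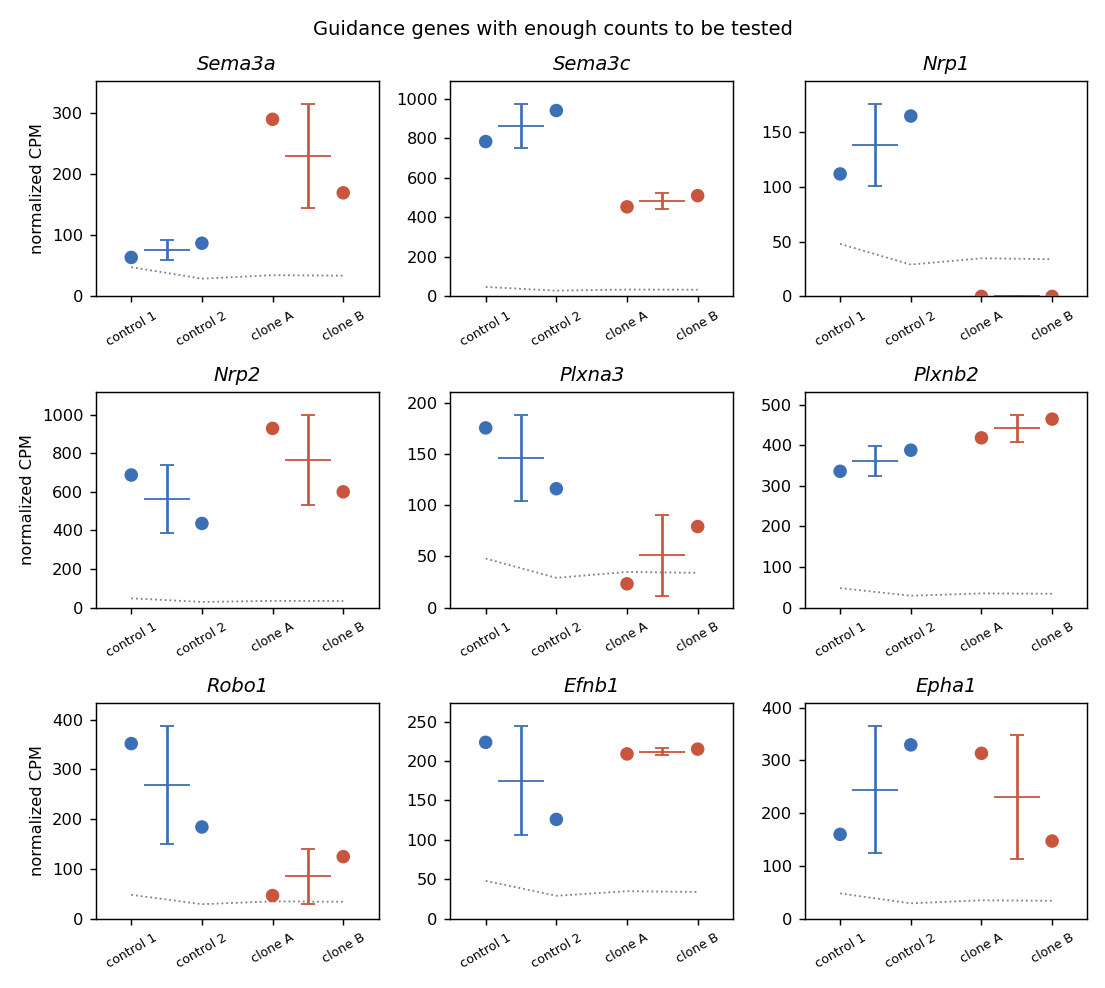
Normalized CPM of the 9 tested guidance genes in each library (points), with the mean and SD of the 2 controls in blue and the 2 clones in red, and the level of 3 counts as a dotted line. Nrp1 lies at 0 in both clones, Robo1 and Sema3c are lower and Sema3a higher in both clones than in both controls, and Nrp2, Efnb1 and Epha1 overlap.

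Robo1 encodes a receptor for Slit proteins and was the sole Robo gene with counts. Control 1 gave 22 Robo1 counts, control 2 gave 19, clone A 4 and clone B 11. These were 352 and 184 CPM in the controls, a mean of 268 ± 118 (SD, n = 2), and 46.5 and 125 CPM in clones A and B, a mean of 85.5 ± 55.2. Clone A kept 17.3% and clone B 46.5% of the mean control level, and the groups did not overlap. edgeR's quasi-likelihood test gave a log2 fold change of -1.58 ± 0.57 (SE) with an unadjusted p of 0.0131. Its adjusted p was 0.16 and ranged from 0.0897 to 0.729 over the alternatives. Without control 1 the unadjusted p was 0.121 and without clone A 0.106, at log2 fold changes of -1.11 and -1.03. Together with Nrp1, which passed the filter through the controls alone, this made 2 of 9 tested guidance genes lower by the unadjusted criterion. That criterion was met by 6.97% of all tested genes. Robo1 and Plxnd1 are on the study's list of candidate Sox10 target genes in OPCs. That list joined genes lowered in these same libraries with published Sox10 binding sites and published expression in OPCs. Its part on lowered expression is not independent evidence.

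Slit2, a secreted ligand of Robo1, was counted 0 and 4 times in control 1 and control 2, 21 times in clone A and 3 times in clone B. Its level was 0 and 38.8 CPM against 244 and 34.0 CPM, so that clone B lay within the range of the controls and the difference came from clone A. Slit1 had fewer than 10 counts in all, and Slit3, Robo2, Robo3 and Robo4 had 0. Without the filter, Slit2 had a log2 fold change of 2.51 ± 0.87 (SE) and an unadjusted p of 0.00394 from edgeR, with an adjusted p of 0.185.

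The 250 bases before each start site in RefSeq are shown for Nrp1, Robo1, Plxna3, Plxnb3 and Plxnd1, because Sox10 binds DNA and these were the receptor genes with lower summed counts in the Sox10-deficient clones beyond counting error. The assembly is GRCr8, a later one than the rn5 of the counts. Sox proteins bind variants of a short core, and ACAAAG and ACAATG were searched on both strands. They are different words and cannot match at the same position. Of all 33469 windows of this length 25.3% held at least 1 of them, and so did 11 of the 50 windows of guidance genes (22%). The windows are chr19:73256307-73256556 for Nrp1, chr11:24067706-24067955 and chr11:24714445-24714694 for Robo1, chrX:157266857-157267106 for Plxna3, chrX:156646624-156646873 for Plxnb3 and chr4:150715188-150715437 for Plxnd1, with Plxnd1 on the minus strand and the others on the plus strand. Capitals mark a match, of which there was 1, in the Plxnb3 window, where it reads CTTTGT and starts 200 bases before the start site.
Nrp1: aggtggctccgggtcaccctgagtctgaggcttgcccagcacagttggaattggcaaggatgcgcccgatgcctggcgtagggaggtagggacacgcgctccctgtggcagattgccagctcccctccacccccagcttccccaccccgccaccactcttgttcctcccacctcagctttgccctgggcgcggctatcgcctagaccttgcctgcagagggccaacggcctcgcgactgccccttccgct
Robo1 first start site: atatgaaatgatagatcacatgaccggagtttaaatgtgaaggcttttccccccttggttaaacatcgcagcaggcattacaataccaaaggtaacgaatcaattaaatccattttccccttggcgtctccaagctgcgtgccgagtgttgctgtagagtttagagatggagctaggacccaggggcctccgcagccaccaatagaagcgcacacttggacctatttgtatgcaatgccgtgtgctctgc
Robo1 second start site: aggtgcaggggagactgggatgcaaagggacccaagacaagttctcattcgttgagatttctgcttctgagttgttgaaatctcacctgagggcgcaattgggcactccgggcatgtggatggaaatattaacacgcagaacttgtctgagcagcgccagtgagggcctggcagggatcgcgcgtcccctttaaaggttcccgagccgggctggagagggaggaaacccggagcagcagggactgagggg
Plxna3: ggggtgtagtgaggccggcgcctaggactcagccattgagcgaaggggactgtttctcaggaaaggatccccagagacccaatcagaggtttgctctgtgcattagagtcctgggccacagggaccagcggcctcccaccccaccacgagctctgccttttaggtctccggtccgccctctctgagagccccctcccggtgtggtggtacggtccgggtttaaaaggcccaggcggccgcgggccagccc
Plxnb3: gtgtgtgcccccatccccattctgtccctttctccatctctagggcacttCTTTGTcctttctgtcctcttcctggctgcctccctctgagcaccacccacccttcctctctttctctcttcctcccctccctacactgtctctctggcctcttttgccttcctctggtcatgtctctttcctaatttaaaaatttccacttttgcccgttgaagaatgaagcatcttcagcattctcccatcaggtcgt
Plxnd1: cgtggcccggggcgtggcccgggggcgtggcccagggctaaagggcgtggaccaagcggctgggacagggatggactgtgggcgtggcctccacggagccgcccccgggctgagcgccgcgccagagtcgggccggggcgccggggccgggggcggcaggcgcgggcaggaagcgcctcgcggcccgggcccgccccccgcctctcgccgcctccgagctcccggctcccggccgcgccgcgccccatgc

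A match of these letters is a description of the window and no evidence of binding, and the lack of a match is no evidence against it. The study's Sox10-bound regions near Tgfb2, Id4 and Wnt7a lay kilobases downstream of the start site, where windows of this kind do not reach. The share of G and C was 66.4% for Nrp1, 48% and 57.2% for the Robo1 start sites, 64.4% for Plxna3, 50.8% for Plxnb3 and 83.2% for Plxnd1, where the median of all windows was 51.2%. Which start site OLN93 cells use was not measured.

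Sema3a, a secreted repellent that binds Nrp1, was the one guidance gene higher by the unadjusted criterion, 1 of 9 tested, where 4.63% of all tested genes met it. Control 1 gave 4 Sema3a counts, control 2 gave 9, clone A 25 and clone B 15. The level was 63.9 and 87.2 CPM in the controls against 290 and 170 CPM, and the groups did not overlap. Sema3a passed the filter through the clones alone, the group where it is higher. edgeR gave a log2 fold change of 1.54 ± 0.57 (SE) with an unadjusted p of 0.0139, and the adjusted p was 0.169. DESeq2 gave an unadjusted p of 0.06, and edgeR gave 0.202 without clone A and 0.0516 without control 2. After adjustment, edgeR called 0 guidance genes higher (1 unadjusted) and DESeq2 called 0 (0 unadjusted), where edgeR called 1.11% of all tested genes.

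Sema3c, which acts through neuropilins and plexins, was lower in both clones than in either control. Control 1 gave 49 Sema3c counts, control 2 gave 97, clone A 39 and clone B 45. Scaled to CPM, Sema3c stood at 783 and 940 against 453 and 510, with no overlap, and the clones kept 52.6% and 59.1% of the mean control level. The log2 fold change of -0.85 ± 0.28 (SE) stayed under 2-fold, with an unadjusted p of 0.00771 and an adjusted p of 0.118 from edgeR. The other secreted semaphorins with counts, Sema3b, Sema3f and Sema3g, had fewer than 10 in all, and Sema3d and Sema3e had 0. Summed over this class, the level was 895 and 1037 CPM in the controls and 790 and 714 CPM in the clones, which did not overlap.

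Among the membrane-bound semaphorins, Sema4c was counted 3 and 13 times in control 1 and control 2 and 1 and 3 times in clones A and B, too few for the filter. Its summed counts were 4.21-fold lower in the clones, with an exact 95% interval of 1.36 to 17.3 that covers counting error only. Sema4b was counted 0 and 6 times in the controls and 2 times in each clone. Sema7a, which is anchored by a lipid tail, was counted 6 times in each control, 8 times in clone A and 7 times in clone B. The levels of Sema7a were 95.9 and 58.2 CPM in the controls and 92.9 and 79.3 CPM in the clones, which overlapped. Sema4g, Sema6b and Sema6d had fewer than 10 counts, and Sema4a, Sema4d, Sema4f, Sema5a, Sema5b and Sema6c had 0.

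The plexins, which carry the signal of semaphorins into the cell, differed from gene to gene. Plxnb2, a receptor of class 4 semaphorins, was counted 21 and 40 times in control 1 and control 2, 36 times in clone A and 41 times in clone B. Its level was 336 and 388 CPM against 418 and 464 CPM, which did not overlap but gave a log2 fold change of 0.27 ± 0.33 (SE) and an adjusted p of 0.808 from edgeR. Plxna3, a partner of neuropilins, was counted 11 and 12 times in control 1 and control 2, 2 times in clone A and 7 times in clone B, or 176 and 116 CPM against 23.2 and 79.3 CPM. Its log2 fold change was -1.45 ± 0.78 (SE) with an unadjusted p of 0.0809 and an adjusted p of 0.431 from edgeR. Non-overlapping groups were found for 6 of the 9 tested guidance genes and for 43% of all tested genes. Of these guidance genes, Nrp1 and Plxna3 passed the filter through the controls alone and Sema3a through the clones alone. These are the groups where they are high, so the number describes the set and does not test it.

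Plxnb3, which is known to mark oligodendroglial cells in the brain, was counted 3 and 9 times in control 1 and control 2, 0 times in clone A and 1 time in clone B. Plxnd1, a receptor of semaphorin 3E, was also counted 3 and 9 times in the controls, but 2 times in clone A and 0 times in clone B. Both genes had too few counts to pass the filter. The summed counts were 12.6-fold lower for Plxnb3, with an exact 95% interval of 1.87 to 540, and 6.31-fold lower for Plxnd1, with 1.41 to 58.1, for counting error only. Plxna2, a partner of neuropilins, was counted 5 and 0 times in the controls and 7 and 6 times in the clones, which overlapped. The summed plexin level was 687 and 679 CPM in the controls and 546 and 623 CPM in the clones. When the filter was left out, 4 of 39 guidance genes with counts were lower by the unadjusted criterion (Nrp1, Robo1, Plxnb3 and Plxnd1) and 2 were higher (Sema3a and Slit2), where 3.28% and 2.94% of the 10024 genes of that fit were. In that fit edgeR gave unadjusted p-values of 0.0196 for Plxnb3 and 0.0495 for Plxnd1, and adjusted p-values of 0.465 and 0.709.

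**Figure D2:**
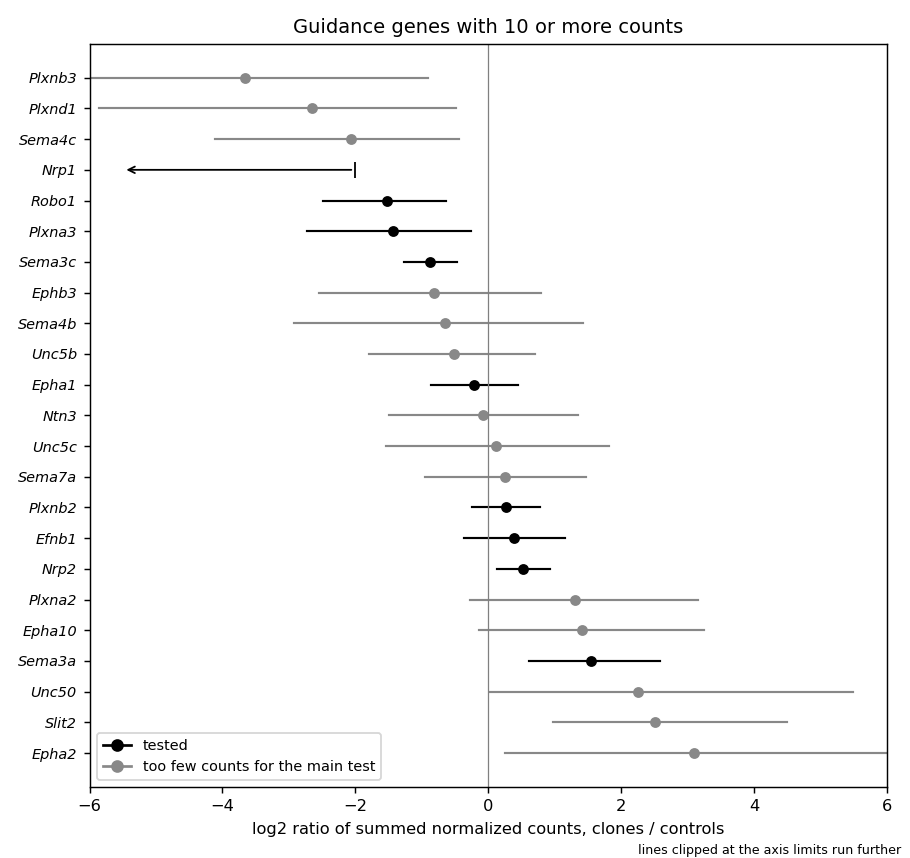
Ratio of the summed normalized counts of the 2 clones to those of the 2 controls on a log2 axis, for the 23 guidance genes with 10 or more counts, with exact 95% intervals that cover counting error only. Black points passed the filter for the main test and grey points did not. For Nrp1, with 0 counts in the clones, the bar marks the limit of 4.02-fold and the arrow points to lower values. The intervals of 7 genes lie below a ratio of 1, those of 5 lie above it, and those of 11 include it. The share of all genes with intervals that exclude 1 was not computed, so these numbers do not set guidance genes apart. Of the 6 tested genes that exclude 1 here, the test between libraries called Nrp1 alone after adjustment, Robo1 and Sema3a by the unadjusted criterion, and Sema3c, Plxna3 and Nrp2 by neither.

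In the Eph and ephrin family, Efnb1, a membrane-spanning ligand, was counted 14 and 13 times in the controls and 18 and 19 times in the clones. Its level was 224 and 126 CPM against 209 and 215 CPM, which overlapped, and edgeR gave a log2 fold change of 0.33 ± 0.46 (SE) with an adjusted p of 0.841, a sign that turned without control 2. Of the receptors, Epha2 was counted 0 and 1 times in the controls, 7 times in clone A and 2 times in clone B. Its summed counts were 8.55-fold higher in the clones, with an exact 95% interval of 1.19 to 375 for counting error only, and edgeR without the filter gave an unadjusted p of 0.069. Ephb3 was counted 3 and 7 times in the controls and 5 and 1 times in the clones, at 48.0 and 67.9 CPM against 58.1 and 11.3 CPM, which overlapped. Efna1, Efna4, Efnb2, Efnb3 and Ephb2 had fewer than 10 counts in all. Epha3, Epha4, Epha5, Epha7, Ephb1, Ephb6, Efna2 and Efna5 had 0.

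Epha1 was counted 10 and 34 times in the controls and 27 and 13 times in clones A and B, or 160 and 330 CPM against 314 and 147 CPM. The groups overlapped, and edgeR gave a log2 fold change of -0.15 ± 0.46 (SE) with an adjusted p of 0.949, a sign that turned without control 2 or clone B. Its counts did not go with the authors' own mean, which was 4 normalized counts for Epha1. Over 5353 genes with a mean of at least 500 in the authors' table, a library held 0.384% of that mean in the median, and Epha1 held 1367 times this share. In GRCr8 the span of Epha1 overlaps that of Zyx, which encodes zyxin and was counted 8 and 21 times in the controls and 31 and 16 times in the clones. Epha10 with 19 counts in all (3 and 2 in the controls, 4 and 10 in the clones) held 618 times the median share, and Ntn3 with 20 counts 32.5 times. A further 6 guidance genes with fewer than 10 counts lay over 10 times the median share (Efnb3, Ntn1, Ntn5, Sema3g and Sema4g) or had a count at an authors' mean of 0 (Unc5a). The counts of these 9 guidance genes are uncertain as a measure of their transcripts, and the cause was not tested. Such an excess was not particular to guidance genes. Of 15661 genes matched to the authors' table, 1546 met the same limit. Without them 1986 genes were tested in place of 2438, so that the shares given over all tested genes include such genes. Which marker and pathway genes are among them is not given here. Nrp1, Robo1, Sema3a and Sema3c held 1.1, 1.04, 1.22 and 1.3 times the median share.

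**Figure D3:**
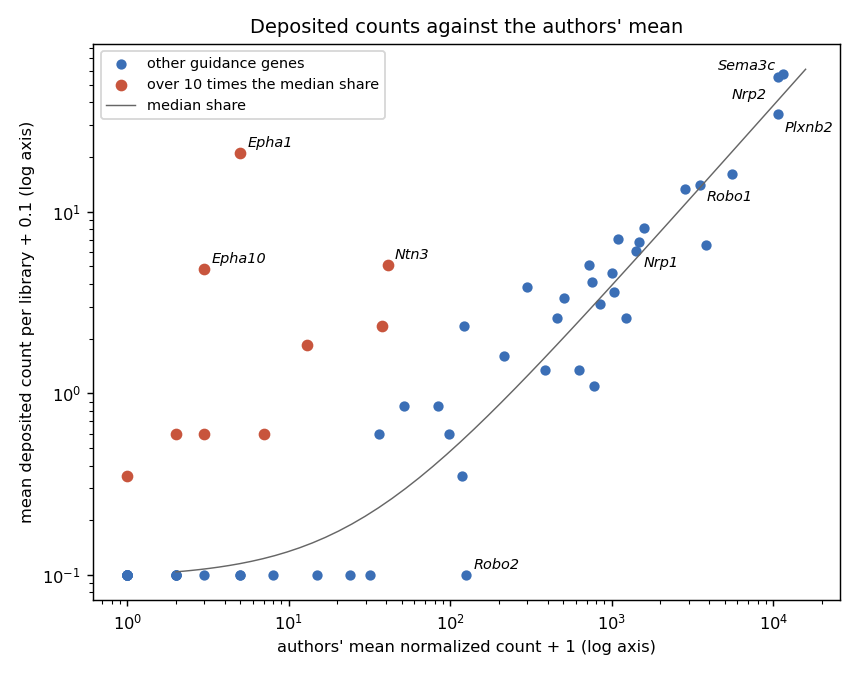
Mean deposited count per library plus 0.1 against the authors' mean normalized count plus 1, both on log axes, for the guidance genes found in both sources. The line is the median share of 0.384%. Genes over 10 times this share are in red, among them Epha1, Epha10 and Ntn3, whereas Nrp1, Robo1, Sema3c and Nrp2 lie near the line.

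For netrin signalling, the receptors Unc5b and Unc5c, which mediate repulsion, were counted in all libraries. Control 1 gave 4 Unc5b counts, control 2 gave 11, clone A 4 and clone B 7. For Unc5c these were 2, 5, 5 and 3. Both overlapped between the groups, at 63.9 and 107 CPM against 46.5 and 79.3 CPM for Unc5b and at 32.0 and 48.5 CPM against 58.1 and 34.0 CPM for Unc5c. Ntn3, a secreted netrin, was counted 4 and 6 times in the controls and 4 and 6 times in the clones. Ntn1, Ntn4, Ntn5 and Unc5a had fewer than 10 counts, and Dcc and Unc5d had 0. The netrin receptors summed to 112 and 155 CPM in the controls and 105 and 113 CPM in the clones. Unc50 and Unc5cl match the rule by symbol but are not netrin receptors. Unc50, a membrane protein of the Golgi whose span overlaps Coa5 and Mgat4a in GRCr8, was counted 0 and 2 times in the controls and 7 and 3 times in the clones, and Unc5cl had 0.

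The 23 guidance genes without any count had an authors' mean of at most 124 (Robo2), which at the median share corresponds to 0.476 counts per library, under the floor of 3 counts. The next highest means were 31 for Slit3, 23 for Sema4a and 14 for Sema6c. Epha3, Epha7, Robo3, Sema3d, Sema3e, Sema4d, Sema4f, Sema5b, Unc5cl and Unc5d had an authors' mean of 0. Robo4 is listed in the counts alone. A gene without counts is not shown to be absent. As counts were not divided by transcript length, levels are not compared between genes. Summed over all 62 genes, the guidance genes made up 3677 and 3664 CPM in the controls and 3752 and 3194 CPM in clones A and B, which overlapped. Without the 9 uncertain genes the sums were 3293 and 3218 CPM against 3299 and 2775 CPM. The 9 tested genes had a median log2 fold change of -0.15, with 5 below and 4 above 0 (also with Nrp1 taken at its limit of 4.02-fold), beside -0.01 over all 2438 tested genes.

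**Figure D4:**
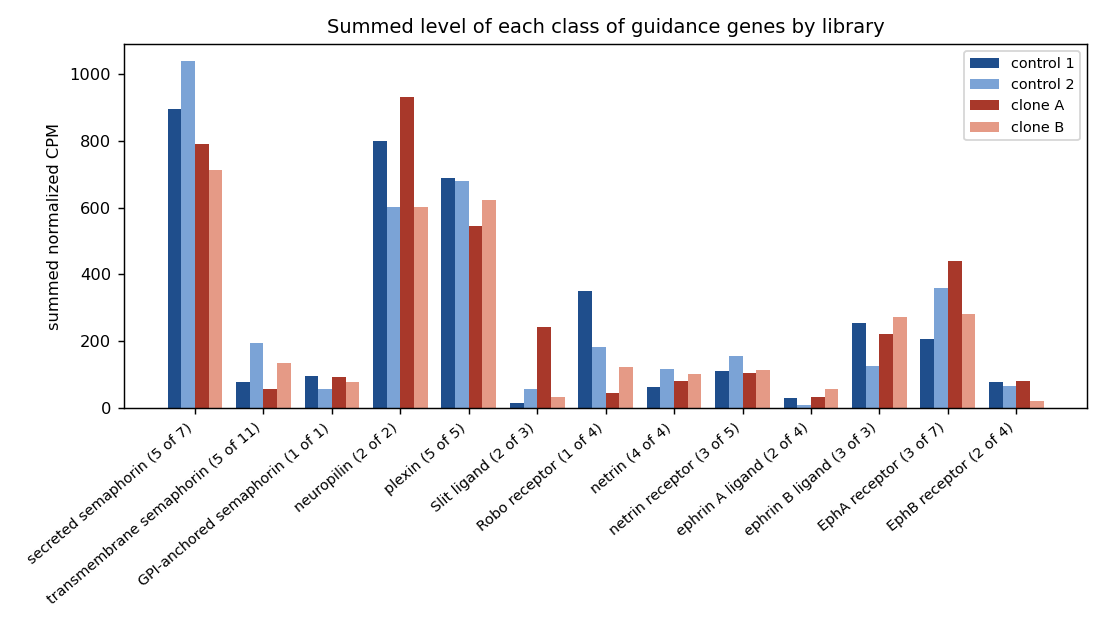
Summed normalized CPM of each class of guidance genes, a bar per library (controls in blue, clones in red), with the number of genes that had counts and the number listed. Counts were not divided by transcript length, so heights compare libraries within a class. The Robo, plexin and secreted semaphorin classes are lower in both clones than in either control, and the ephrin A class is higher at few counts. The plexin class lies at 687 and 679 CPM in the controls and at 546 and 623 CPM in the clones. The Slit class is high in clone A alone.

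**Figure D5:**
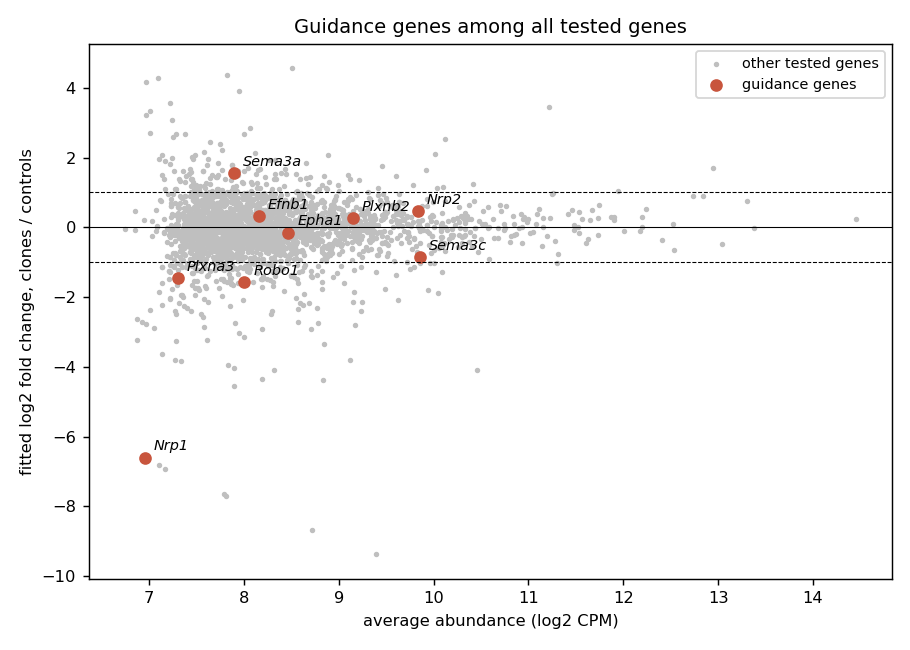
Fitted log2 fold change of the clones against the controls and average log2 CPM of all 2438 tested genes in grey, with the 9 tested guidance genes in red. Dashed lines mark 2-fold. Nrp1 lies at -6.60, a fitted value that depends on the prior count since the clones had 0 counts, Robo1, Plxna3 and Sema3a lie outside the dashed lines, and the other 5 lie within them.

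Genes of proteins that signal downstream of these receptors, or that bind, shed or act beside the cues and receptors, were taken as 5 lists written from general knowledge. Of 81 genes, 76 were listed in the counts and 29 could be tested. After adjustment by edgeR, 1 was higher and 0 were lower. Of all tested genes 1.11% were higher and 2.5% lower in this way. By the unadjusted criterion 1 was higher and 3 were lower, where 4.63% and 6.97% of all tested genes were, and DESeq2 gave 0 lower and 1 higher unadjusted and 0 in either direction after adjustment. The gene called was Rasa1, a Ras GTPase-activating protein that binds activated EphB receptors, counted 5 and 9 times in the controls and 28 and 29 times in the clones, with a log2 fold change of 1.93 ± 0.46 (SE, adjusted p of 0.024 from edgeR). The adjusted p of Rasa1 was 0.263 with DESeq2, and with edgeR it was 0.497 without control 2, 0.115 without clone A and 0.142 without clone B. In the Eph and ephrin list it was 1 of 6 tested genes, and Sipa1l1 and Ptpn11 had log2 fold changes of -0.65 and -0.50 with unadjusted p-values of 0.0911 and 0.311 from edgeR. In the Slit and Robo list, 2 of 8 tested genes were lower by the unadjusted criterion, the GTPase-activating proteins Srgap2, which binds Robo1, with a log2 fold change of -1.19 ± 0.48 (SE), and Arhgap39 with -1.94 ± 0.81 (SE). Their adjusted p-values from edgeR were 0.224 and 0.252. Vasp, an actin regulator of the same list, had a log2 fold change of 1.62 and an adjusted p of 0.363 from edgeR.

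In the plexin and semaphorin list, 1 of 7 tested genes was lower by the unadjusted criterion, as were 6.97% of all tested genes. Arhgef12, a guanine nucleotide exchange factor that binds class B plexins, had a log2 fold change of -1.14 ± 0.41 (SE) with an adjusted p of 0.153 from edgeR. Arhgap35 and Farp1 had log2 fold changes of -0.71 and 0.45 with adjusted p-values of 0.413 and 0.589 from edgeR. In the netrin list 3 genes were tested and 0 met either criterion. Dock1, an activator of Rac, had a log2 fold change of -0.76 with an unadjusted p of 0.035 from edgeR, under 2-fold, and Pitpna and Ptk2 had 0.78 and -0.08. Of the small GTPases and their effectors, 5 of 12 were tested and 0 met either criterion, with log2 fold changes of -0.63 for Rock2, -0.16 for Cdc42 and 0.12 for Rhoa. Over these 29 genes the median log2 fold change was -0.14.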

How the data were processed

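RNA-Seq data of OLN93 cells were used, with 2 libraries for controls and 2 for Sox10-deficient clones. Reads had been mapped by the authors to rat rn5 with STAR 2.5.1 and unique mappings counted with HTSeq. The authors deposited raw counts per gene symbol, without normalization; whether strand was used in counting is not given in the sources used here. From the authors' DESeq2 table the mean normalized count alone was taken, a score rounded to whole numbers; its fold changes and p-values were not used.

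Counts were tested over all 2438 genes kept by filterByExpr in R 4.3.3 with edgeR 4.0.16 (TMM, quasi-likelihood, condition as the sole term, Benjamini-Hochberg adjustment) and checked on simulated counts. SEs derive from the F statistic. CPM are counts over TMM-scaled totals. Calls needed 2-fold and p of 0.05 or less. P-values measure the spread between these libraries, which may be technical, and floors and intervals cover counting error only. Exact intervals used scipy 1.17.1. Alternatives included DESeq2 1.42.0 (without independent filtering), other scalings and filters, a replicate term and leaving out each library. Guidance genes that were tested or had 10 or more counts were named with their values, as were up to 3 genes per pathway list by lowest p; other genes were grouped by their summed counts. Members, pathway and marker lists were chosen with earlier results of these data known. Promoter windows came from RefSeq (GRCr8), where 49 guidance genes matched.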

Additional observations from a re-analysis of the deposited data

Results flagged for a closer look

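Guidance genes that the comparisons could not use were present in the authors' table, which lists 9 of them without a matching symbol in the deposited counts. Plxna1, a neuropilin partner, has an authors' mean of 6153 normalized counts and Sema6a, a membrane-bound semaphorin, one of 3428. At the median share of 0.384% these correspond to 23.6 and 13.2 counts per library, above the floor of 3 counts. Plxnb1 and Ephb4 have means of 642 and 694, which correspond to 2.47 and 2.67 counts. The means pool all 4 libraries, so that no comparison of the groups was possible for these genes.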

How the results depend on the processing

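After adjustment, 1 guidance gene (Nrp1) was lower in the 4-library fits with edgeR, with DESeq2's size factors, library totals or no filter. It was 0 with at least 10 counts in every library, with DESeq2's test, without the genes over 10 times the median share (added once the data had been seen) and with a replicate block, and between 0 and 0 when each library was left out. With at least 10 counts in every library and without those genes, Nrp1 was no longer tested. The unadjusted number of 2 lower genes became 4 without the filter, 0 with at least 10 counts in every library, 1 without those genes, and 1 to 2 with a library left out. The unadjusted number of 1 higher gene became 2 without the filter, 0 with at least 10 counts and with DESeq2's test, and 0 to 2 with a library left out. The number of genes higher after adjustment was 0 in each alternative run. The log2 fold changes of Efnb1 (-0.11 without control 2, with a range from -0.11 to 0.72 when a library was left out) and Epha1 (0.49 without control 2, 0.29 without clone B, range from -0.78 to 0.49) changed sign, and those of the other 7 tested genes kept their sign under each alternative that tested them. Apart from fewer genes tested or fewer libraries, the cause was not tested. Over all genes, the number of lower genes after adjustment lay between 8 and 74 in the fits of 4 libraries and was 0 without control 2. Replicate numbers are shared between the groups by label alone, and the deviations of libraries with the same number correlated at 0.122 over the tested genes, which does not show a pairing. With the replicate block, Nrp1 had an adjusted p of 0.135, the pathway gene Rasa1 one of 0.0964, and 28 genes were lower. At the depth of the deposited counts, 53 of the 62 guidance genes could not be tested. Some of them, such as Epha3, Robo3 and Sema3d, had an authors' mean of 0. Others had a high one, such as Unc5b with 3806 and Slit2 with 1086. The part that depth had in this was not tested.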
